A study of Mus musculus with 15 samples.

Results

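Gene expression was compared between plasmacytoid dendritic cells (pDC) and type 2 conventional dendritic cells (cDC2), both sorted from the thymus of mice lacking LKB1 in CD11c-expressing cells. LKB1, encoded by Stk11, is a kinase that activates AMPK and related kinases. The comparison used all 22165 genes of the count table in 6 of the 15 libraries, 3 of pDC KO and 3 of cDC2 KO. Of these genes, 11746 had enough counts to be tested. The same contrast in wild-type mice, with 3 pDC WT and 2 cDC2 WT libraries, served as the reference and shared no library with it.

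KO mice were Itgax-cre Stk11 fl/fl on the C57BL/6 background, in which the promoter of Itgax, the gene for CD11c, drives Cre. Deletion is therefore directed to CD11c-expressing cells. Its extent in these cells and in other thymic cells was not tested. Male and female mice aged 8 to 12 weeks, KO and WT alike, carried a subcutaneous B16 melanoma that secretes Flt3L, a cytokine that expands dendritic cells, and thymi were taken 9 to 12 days later. After enrichment on CD11c beads, cDC2 were sorted as CD11b+ CD11c+ MHCII+ cells and pDC as Siglec-H+ cells with intermediate CD11c. Each library held strand-specific tags of transcript 3′ ends, amplified by 12 PCR cycles. The labels do not say that replicates came from separate mice, so p-values measure the spread between these samples.

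pDC detect viral nucleic acids in endosomes through TLR7 and TLR9 and can release large amounts of type I interferon. Their identity depends on the E protein TCF4 (E2-2), which binds E-box motifs and is kept active against inhibitors of the Id family. cDC2 are specialised in presenting antigen on MHC class II to CD4+ T cells, and their development depends on PU.1, the product of Spi1. In the thymus, both subsets take part in the selection of T cells and in the formation of regulatory T cells.

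Total counts ran from 6480821 to 12142712 in cDC2 KO and from 5453387 to 7357023 in pDC KO. At an equal depth of 3928164 counts, 12397 to 12708 genes were detected in cDC2 KO and 10835 to 11178 in pDC KO, and ribosomal protein genes held 4.72% to 5.62% and 3.68% to 4.21% of counts. Both ranges were apart (exact two-sided permutation p = 0.1, the smallest that 3 against 3 allows). In WT they were not. There 10840 and 11353 genes were detected in cDC2 and 10948 to 11200 in pDC, with ribosomal shares of 3.85% and 3.87% and of 2.58% to 5.01%. The depth of 3928164 is the total of cDC2 WT 1, the lowest of the libraries. The 2 cDC2 WT libraries correlated less with each other (Pearson's r of log2 CPM across genes 0.923) than with a library of another group (0.943 and 0.947). Each pDC KO library also correlated less with at least 1 library of its own group (lowest r 0.93 to 0.945) than with a library of another group (0.94 to 0.95), whereas the cDC2 KO libraries did not (0.97 to 0.974 within, up to 0.955 with another group). The part of these library differences in the results was not tested.

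Stk11 itself was read at 43.5, 33.2 and 36.6 CPM in pDC KO 1 to 3 and at 36.1, 28.2 and 29.2 CPM in cDC2 KO 1 to 3, where CPM is the count scaled to 1e6 of the effective library size. The groups overlapped, and the log2 difference was 0.28 ± 0.29 (adjusted p = 0.535). In WT the values were 66.8, 40.6 and 46.7 CPM in pDC and 34.2 and 34.9 CPM in cDC2. Tags from the 3′ end do not check a deletion elsewhere in the gene, so these values do not test the KO label. Here and below, a log2 difference is pDC minus cDC2 with its standard error, and p-values are those of the quasi-likelihood test in edgeR, adjusted over the 11746 genes by the Benjamini-Hochberg method and called at a threshold of 0.05.

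Of the 11746 genes, 3040 passed the threshold (25.9%). In pDC KO, 1285 were higher (10.9%) and 1755 were lower (14.9%), and the median log2 difference over all tested genes was -0.08. The counts of gene lists below are to be read beside these shares. Among those past the threshold, 550 were more than 4-fold higher in pDC KO and 931 more than 4-fold higher in cDC2 KO. At more than 32-fold there were 142 and 306. These are fitted differences, which can exceed what the counts bound where a KO group had no count, as in at least 364 tested genes. For Adgre1 the fitted fold was 715 and the bound 83.1. The libraries of the 2 groups did not overlap for 2965 of the 3040, against 44.8% of all tested genes. In bulk libraries such as these, fewer cells of a kind, dividing cells included, and less RNA per cell cannot be told apart.

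The given markers Siglech and Plbd1 followed the labels. Siglech encodes Siglec-H, the receptor on which pDC were sorted, so it checks the sort and is no finding. It read 18780, 21411 and 20117 CPM in pDC KO and 153, 147 and 149.6 CPM in cDC2 KO (log2 difference 7.07 ± 0.37, adjusted p = 7.62e-10). Plbd1, a phospholipase B-like protein, read 27.4, 22.6 and 11.7 CPM in pDC KO and 741, 652 and 532 CPM in cDC2 KO, with no overlap (log2 difference -4.96 ± 0.39, adjusted p = 4.84e-08).

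Cldn12, a tight junction protein, was also given with the comparison, without a subset. The list of pDC markers used below holds it, and its values went against that placing. Its values were 0.3, 0 and 0 CPM in pDC KO and 2438, 4.47 and 3.05 CPM in cDC2 KO (log2 difference -12.73 ± 3.10, adjusted p = 0.0121). A single library, cDC2 KO 1, set the size of this difference, which was -4.99 without it (adjusted p = 0.0222), and the call was lost without pDC KO 1 or pDC KO 3 (adjusted p = 0.064 and 0.0515). In WT no library exceeded 0.912 CPM. Only 2 other called genes, named here after their values were seen, had a highest library more than 10 times the next library of their group, both in pDC KO 1. These were Hunk, a SNF1-related kinase, at 74.1, 0.972 and 0.175 CPM in pDC KO and 1.57, 0.718 and 1.31 CPM in cDC2 KO, and Ccdc117 at 205, 18.6 and 14 CPM and 11.1, 9.1 and 17.3 CPM. Without pDC KO 1 the log2 difference of Hunk turned from 4.40 to -0.997.

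Mctp2, which encodes a membrane protein with C2 domains, had the smallest p. It read 312, 430.3 and 403 CPM in pDC KO and 0.428, 0.878 and 0.29 CPM in cDC2 KO. Every cDC2 KO library was under 1 CPM and every pDC KO library far above it (log2 difference 9.32 ± 0.44, adjusted p = 4.51e-10). The upstream sequences of the 3 leading genes with a RefSeq promoter on each side follow, because these genes separate the subsets most clearly, and because TCF4 and PU.1, whose genes also differed, bind short motifs. Each line gives the 250 bases before the RefSeq start, 5′ to 3′ on the gene's strand. Capitals mark the E-box forms CAGCTG and CACCTG, and the PU.1 motif GAGGAAGT, searched on both strands, which did not overlap one another here. A PU.1-IRF composite element was also searched and was in none of the windows.
Mctp2, higher in pDC, GRCm38.p6, chr7:72306596-72306845, minus strand: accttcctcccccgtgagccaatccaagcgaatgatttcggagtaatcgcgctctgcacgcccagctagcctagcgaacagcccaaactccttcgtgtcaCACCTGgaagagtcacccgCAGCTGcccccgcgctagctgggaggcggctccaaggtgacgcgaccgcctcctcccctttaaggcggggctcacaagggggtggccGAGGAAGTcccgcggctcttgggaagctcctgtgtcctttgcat
Siglech, higher in pDC, GRCm38.p6, chr7:55767934-55768183, plus strand: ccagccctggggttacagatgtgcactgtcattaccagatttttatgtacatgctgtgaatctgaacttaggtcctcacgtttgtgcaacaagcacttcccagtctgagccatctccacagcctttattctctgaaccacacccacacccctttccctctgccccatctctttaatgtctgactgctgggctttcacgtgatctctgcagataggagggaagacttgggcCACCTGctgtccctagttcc
Klk1, higher in pDC, GRCm38.p6, chr7:44225110-44225359, plus strand: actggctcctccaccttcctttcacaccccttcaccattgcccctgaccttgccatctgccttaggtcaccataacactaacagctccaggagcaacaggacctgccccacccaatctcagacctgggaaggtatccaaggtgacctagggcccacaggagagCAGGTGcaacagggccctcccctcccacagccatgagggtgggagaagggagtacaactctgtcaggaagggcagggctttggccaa
Pak1, higher in cDC2, GRCm38.p6, chr7:97788291-97788540, plus strand: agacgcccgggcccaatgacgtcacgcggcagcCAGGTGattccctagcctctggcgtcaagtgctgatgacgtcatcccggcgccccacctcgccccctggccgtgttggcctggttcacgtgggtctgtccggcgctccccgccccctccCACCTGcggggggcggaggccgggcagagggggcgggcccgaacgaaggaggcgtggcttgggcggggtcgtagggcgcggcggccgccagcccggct
Prkar2a, higher in cDC2, GRCm38.p6, chr9:108691893-108692142, plus strand: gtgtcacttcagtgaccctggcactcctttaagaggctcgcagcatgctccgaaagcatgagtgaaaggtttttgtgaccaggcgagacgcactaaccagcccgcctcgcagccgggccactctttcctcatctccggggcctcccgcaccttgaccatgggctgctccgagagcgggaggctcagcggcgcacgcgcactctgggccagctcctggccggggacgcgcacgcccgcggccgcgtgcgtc
Naaa, higher in cDC2, GRCm38.p6, chr5:92278182-92278431, minus strand: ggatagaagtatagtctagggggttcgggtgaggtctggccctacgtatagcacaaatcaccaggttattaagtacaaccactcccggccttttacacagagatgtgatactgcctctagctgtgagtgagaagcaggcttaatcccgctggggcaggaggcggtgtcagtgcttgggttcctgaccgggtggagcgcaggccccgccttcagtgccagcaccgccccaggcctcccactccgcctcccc

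The Mctp2 window held both E-box forms and the PU.1 motif, that of Siglech held CACCTG, and that of Klk1 held CACCTG on the other strand. In the Pak1 window CACCTG stood on both strands, at separate places. None of the motifs was found for Prkar2a and Naaa. Among all 27025 windows of this length in the RefSeq table, 12.8% held CAGCTG, 17.1% CACCTG, 2.44% GAGGAAGT and 2.38% the composite. A window was found for 9258 of the 11746 tested genes (78.8%), so shares were not compared between genes higher in pDC and in cDC2. A match here is a description of letters and not a binding site.

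Other genes among the smallest p-values on the pDC side followed. Ly6d, a surface protein of lymphoid-biased progenitors, read 1079, 914 and 793 CPM in pDC KO and 5.71, 3.83 and 3.19 CPM in cDC2 KO (log2 difference 7.77 ± 0.38, adjusted p = 4.98e-10). Klk1, a kallikrein protease, read 225, 245 and 266 CPM in pDC KO and had no count in the cDC2 KO libraries, so it was at least 2160-fold higher against a floor of 3 counts over the group. That floor covers counting error only, since the tags carried no molecular identifiers. Pacsin1, an adaptor of endocytosis needed for the interferon response of pDC, read 895, 1192 and 952 CPM against 7.7, 3.59 and 5.23 CPM. Ctsl, the lysosomal protease cathepsin L, read 672, 592 and 585 CPM against 6.85, 5.27 and 9.58 CPM. None of these ranges overlapped.

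Blnk, the adaptor that links the B cell receptor to phospholipase C, read 378, 319 and 325 CPM in pDC KO and 2.85, 3.43 and 2.18 CPM in cDC2 KO (log2 difference 6.89 ± 0.41, adjusted p = 2.49e-09). Havcr1 (TIM-1, a phosphatidylserine receptor) had a log2 difference of 6.78 ± 0.40, Rpgrip1 (a ciliary protein) of 7.56 ± 0.44, Ncald (a neuronal calcium sensor) of 7.31 ± 0.44 and Cmah (an enzyme of sialic acid synthesis) of 7.98 ± 0.48. Fcrla, Upb1 and Sla2, a B lineage Fc receptor-like protein, an enzyme of pyrimidine breakdown and an adaptor that dampens antigen receptor signals, stood at 6.84 ± 0.41, 6.50 ± 0.40 and 6.41 ± 0.43. All passed the threshold, with adjusted p-values of 2.49e-09, 2.49e-09, 2.69e-09, 2.69e-09, 2.69e-09, 3.83e-09 and 1.08e-08 in the order named.

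On the cDC2 side the leading genes were a kinase, a kinase regulator and a lysosomal enzyme. Pak1, a kinase activated by Rac and Cdc42, read 311, 231 and 271 CPM in cDC2 KO and 8.4, 11 and 4.9 CPM in pDC KO (log2 difference -5.05 ± 0.34, adjusted p = 1.04e-08). Prkar2a, a regulatory subunit of protein kinase A, read 274, 281 and 271 CPM against 19.2, 13.7 and 11 CPM, with log2 difference -4.23 ± 0.29 (adjusted p = 1.27e-08). Naaa, which hydrolyses N-acylethanolamines, is also in the list of cDC1 markers used below. It read 634, 381 and 653 CPM against 30.3, 21.9 and 21.4 CPM, with log2 difference -4.50 ± 0.31 (adjusted p = 1.7e-08). The cDC2 libraries lay above the pDC libraries for each of them. Tgfbi, a matrix protein, Cd9, a tetraspanin, and Fgl2, a fibrinogen-like protein, had log2 differences of -6.28 ± 0.46, -4.49 ± 0.33 and -4.39 ± 0.33. Gatm, the first enzyme of creatine synthesis, and Dab2, a clathrin adaptor, stood at -5.86 ± 0.45 and -5.71 ± 0.46.

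**Figure D1:**
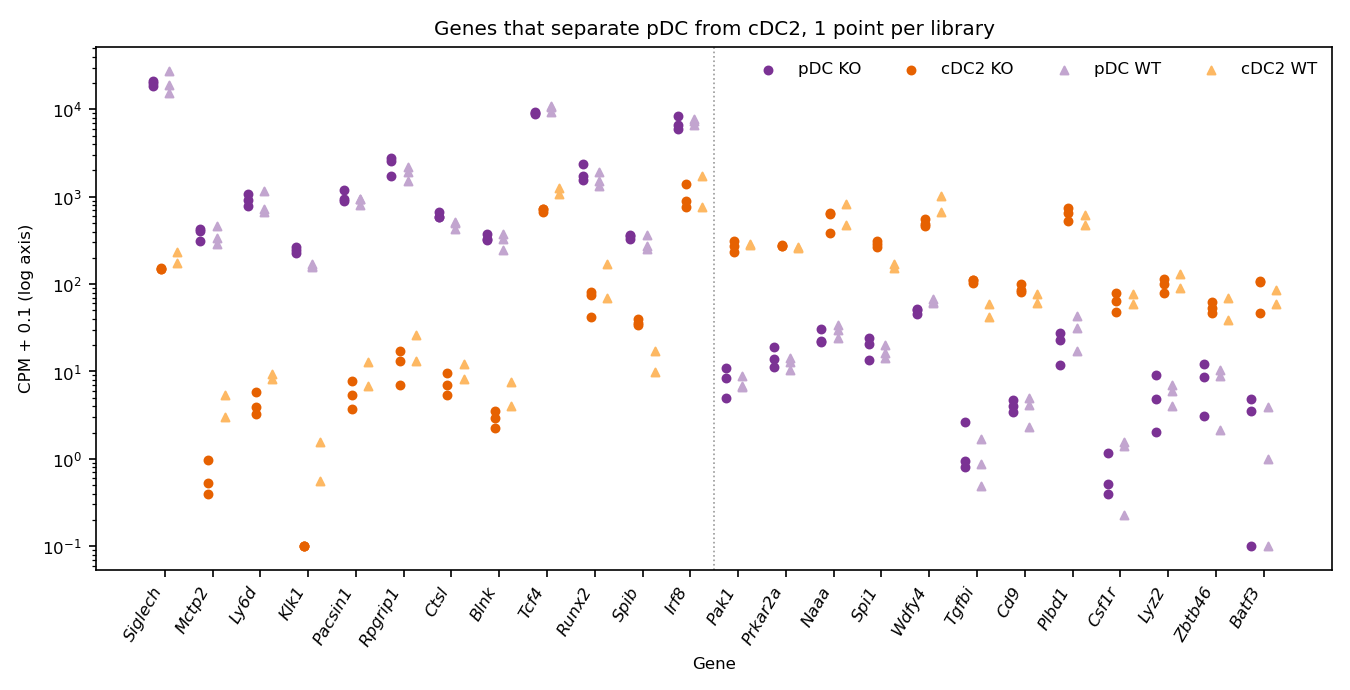
Expression of 24 genes in each library, as CPM plus 0.1 on a log axis, for pDC KO and cDC2 KO (circles) and for pDC WT and cDC2 WT (triangles). To the left of the dotted line the pDC KO points lie above the cDC2 KO points, as for Siglech and Mctp2, and to the right they lie below, as for Pak1 and Spi1. Klk1 in cDC2 KO and Batf3 in pDC KO 3 are at the bottom because they had no count.

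Of 35 tested pDC markers, 31 were higher in pDC KO, 1 was lower (Cldn12) and 3 did not pass, with a median log2 difference of 4.82. The markers beside those above included Ccr9, the receptor for the thymic chemokine CCL25, at 4901, 4304 and 9366 CPM in pDC KO and 29, 33.7 and 37 CPM in cDC2 KO (log2 difference 7.54 ± 0.54, adjusted p = 2.27e-08). They also included Cox6a2, a muscle-type subunit of cytochrome oxidase, at 1108, 1161 and 833 CPM and 23.7, 24.7 and 28.2 CPM, with no overlap (log2 difference 5.34 ± 0.46, adjusted p = 1.21e-07). Of 34 cDC2 markers, 25 were lower in pDC KO, 3 were higher and 6 did not pass (median -3.21). Csf1r, the receptor for M-CSF, read 48.4, 63.5 and 80 CPM in cDC2 KO and 0.3, 0.417 and 1.05 CPM in pDC KO, and Lyz2, lysozyme, read 79.9, 113 and 100.0 CPM and 4.8, 9.03 and 1.93 CPM. Both were lower in pDC KO in every library, with log2 differences of -6.77 ± 0.61 and -4.20 ± 0.44.

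The 3 cDC2 markers that were higher in pDC KO were Clec12a, an inhibitory lectin, Cd7 and Cdh1 (E-cadherin), with log2 differences of 1.76 ± 0.29, 1.88 ± 0.35 and 1.32 ± 0.27. Sirpa, the surface receptor commonly used to define cDC2 and named here after its value was seen, read 130.5, 111 and 132 CPM in pDC KO and 155, 218 and 151 CPM in cDC2 KO (log2 difference -0.49 ± 0.25, adjusted p = 0.158). The groups did not overlap, yet the difference did not pass. Itgax, which encodes the CD11c of both gates, read 184, 189.8 and 199 CPM in pDC KO and 244, 244 and 254 CPM in cDC2 KO (log2 difference -0.37 ± 0.22, adjusted p = 0.244).

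Markers of type 1 conventional dendritic cells (cDC1) were also mostly on the cDC2 side, Naaa among them. Of 24 tested, 15 were lower in pDC KO, 2 were higher and 7 did not pass (median -3.92). Xcr1, the chemokine receptor that defines cDC1, read 57.6, 67.1 and 51.4 CPM in cDC2 KO and 2.1, 2.36 and 3.68 CPM in pDC KO (log2 difference -4.44 ± 0.64, adjusted p = 7.08e-05). Wdfy4, needed for cross-presentation, read 555, 485 and 467 CPM and 45.3, 51 and 51.1 CPM (log2 difference -3.35 ± 0.24). The 2 that were higher in pDC KO were Cd8a, at 78.6, 102 and 87.2 CPM against 14.7, 9.97 and 10.6 CPM, and Cadm1, an adhesion molecule, at 890.4, 861 and 701 CPM against 49.4, 53.5 and 75.5 CPM (adjusted p = 8.9e-07 and 0.00232). Summed over the list, cDC2 KO libraries held 1969 to 2641 CPM and pDC KO libraries 1105 to 1261 CPM. Whether cDC1 cells within the cDC2 gate bear on these values was not tested.

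Transcription factors of the pDC program were higher in pDC KO for 8 of 16 tested, lower for 1 and not past the threshold for 7 (median 1.07). Tcf4 read 9454, 9121 and 8774 CPM in pDC KO and 716, 677 and 718 CPM in cDC2 KO, with narrow ranges in both groups (log2 difference 3.70 ± 0.23, adjusted p = 4.09e-09). Runx2, which is needed for pDC to leave the bone marrow, read 1558, 1715 and 2343 CPM and 74.2, 81.9 and 42.4 CPM, and Spib, an Ets factor of pDC, 325, 360.3 and 359 CPM and 39.7, 35.5 and 33.5 CPM. Their log2 differences were 4.82 ± 0.38 (adjusted p = 4.96e-08) and 3.26 ± 0.27 (adjusted p = 9.64e-08). Irf8, Myb and Zeb2, factors of dendritic cell and progenitor development, stood at 2.78 ± 0.31, 2.69 ± 0.40 and 1.72 ± 0.28. Cbfa2t3 (ETO2), a corepressor partner of TCF4, was the 1 lower gene, at -0.82 ± 0.27 (adjusted p = 0.0336), a call lost without any 1 of cDC2 KO 1, 2 or 3 or of pDC KO 2 or 3 (adjusted p 0.0533 to 0.139). Irf7, the main inducer of interferon-alpha genes, named after its value was seen, read 324, 271 and 309 CPM and 268, 235 and 339 CPM (adjusted p = 0.83), with overlapping groups.

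Conventional dendritic cell factors were lower in pDC KO for 9 of 23, higher for 2 and not past the threshold for 12 (median -1.66). Spi1 read 288, 264 and 313 CPM in cDC2 KO and 23.8, 20.3 and 13.5 CPM in pDC KO, with no overlap (log2 difference -3.90 ± 0.28, adjusted p = 2.1e-08). Id2, which inhibits E proteins and was named after its value was seen, read 1380, 1141 and 864 CPM and 435, 343 and 163 CPM (log2 difference -1.85 ± 0.35, adjusted p = 0.000618). Irf4, also named after its value was seen, overlapped between the groups. It read 41.8, 25.2 and 35.1 CPM in cDC2 KO and 58.2, 8.61 and 5.6 CPM in pDC KO, where library 1 was above every cDC2 KO library. Zbtb46, the factor that marks conventional dendritic cells, had a log2 difference of -2.76 ± 0.51, and Batf3, Rbpj and Relb of -4.93 ± 0.87, -1.94 ± 0.32 and -2.08 ± 0.37. The 2 on the other side were the lymphoid factors Ikzf2 (Helios) and Ikzf1 (Ikaros), at 2.49 ± 0.29 and 1.01 ± 0.24.

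Genes of nucleic acid sensing went both ways. Of 25 tested genes, 6 were higher and 6 lower in pDC KO (median 0.10), where 10.9% and 14.9% of all tested genes were. The endosomal receptor Tlr7 read 172, 164 and 219.6 CPM in pDC KO and 9.13, 7.02 and 5.66 CPM in cDC2 KO, and Tlr9 read 589, 912 and 964 CPM and 309, 217 and 218 CPM. Unc93b1, which carries both receptors to endosomes, read 518, 506 and 638 CPM and 220.1, 179 and 168 CPM. For these genes every pDC library was above every cDC2 library, with log2 differences of 4.67 ± 0.46, 1.73 ± 0.26 and 1.55 ± 0.26 (adjusted p = 6.08e-07, 7.95e-05 and 0.000191). Lower in pDC KO were Tlr3, which is endosomal too, the cytosolic RNA sensors Ddx58 (RIG-I) and Ifih1 (MDA5), and the signalling genes Irak4, Irf5 and Myd88. Ddx58 read 66.9, 147 and 99.8 CPM in cDC2 KO and 0.45, 11.2 and 1.93 CPM in pDC KO (log2 difference -4.50 ± 0.74, adjusted p = 0.000328), and Ifih1 stood at -2.00 ± 0.36 (adjusted p = 0.000409).

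Receptors for bacterial and lipid patterns were lower in pDC KO for 13 of 21 and higher for 0 (median -2.76), where 10.9% of all tested genes were higher. Tlr2, the lipoprotein receptor, read 20.4, 17.6 and 24.1 CPM in cDC2 KO and 3, 0.833 and 1.58 CPM in pDC KO (log2 difference -3.51 ± 0.48, adjusted p = 2.6e-05). Nlrp3, the inflammasome sensor, read 49.1, 77.9 and 279 CPM and 11.2, 5.42 and 8.93 CPM (log2 difference -3.99 ± 0.61, adjusted p = 0.000129), and cDC2 KO 3 was far above the other cDC2 libraries. Clec7a (dectin-1), Mrc1 (the mannose receptor) and Nod2 had log2 differences of -5.40 ± 0.87, -4.18 ± 0.68 and -3.23 ± 0.52.

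Genes of the type I interferon response were lower in pDC KO for 15 of 30, higher for 3 and not past the threshold for 12 (median -0.91). Ifit1 read 435, 306 and 303 CPM in cDC2 KO and 15, 22.2 and 11 CPM in pDC KO (log2 difference -4.43 ± 0.34, adjusted p = 4.29e-08). Ifitm3, Ifit3 and Isg15 stood at -3.62 ± 0.39, -3.45 ± 0.47 and -2.43 ± 0.33. On the other side were Bst2, the antigen of a common pDC antibody, Trim30a and Mx2, at 2.29 ± 0.28, 1.14 ± 0.26 and 1.20 ± 0.37, the call for Mx2 being lost when cDC2 KO 1 or 3 or pDC KO 2 was left out (adjusted p 0.0771 to 0.0828). The summed level of the list did not separate the groups, at 5717 to 6058 CPM in cDC2 KO and 4632 to 6040 CPM in pDC KO (exact two-sided permutation p = 0.6). Of the interferon receptor chains, Ifnar1 and Ifnar2 were both higher in pDC KO, at 1.25 ± 0.24 and 2.01 ± 0.35 (adjusted p = 0.000779 and 0.000283).

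MHC class II genes were lower in pDC KO for 12 of 17, with 0 higher and 5 not past the threshold (median -1.79). MHC class II protein was part of the cDC2 gate, so these genes are not independent of the sort. H2-Ab1 read 3490, 3630 and 4412 CPM in cDC2 KO and 815, 686 and 628 CPM in pDC KO, and the invariant chain gene Cd74 read 5416, 6889 and 7076 CPM and 1789, 2014 and 1542 CPM. The log2 differences were -2.44 ± 0.22 and -1.86 ± 0.23 (adjusted p = 2.53e-07 and 9.48e-06), and -1.79 ± 0.21, -2.21 ± 0.25 and -3.13 ± 0.30 for H2-Aa, H2-Eb1 and H2-DMb2. H2-Ob, a chain of the DO molecule that restrains peptide loading, read 82.9, 58.3 and 74.6 CPM and 0.15, 4.3 and 2.63 CPM (log2 difference -4.91 ± 0.58, adjusted p = 5.01e-06). In MHC class I presentation 2 of 18 were higher, near the 10.9% of all tested genes, and 0 lower. These were B2m and H2-K1, at 1.02 ± 0.27 and 0.99 ± 0.31 (adjusted p = 0.00874 and 0.0262). H2-K1 lost its call when library 2 or 3 of cDC2 KO, or library 1 or 3 of pDC KO, was left out (adjusted p 0.0524 to 0.114), and B2m when pDC KO 2 was (adjusted p = 0.0781).

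Costimulation and maturation genes were lower in pDC KO for 13 of 23 and higher for 1 (median -1.84). Cd86, a ligand of CD28, read 133, 207 and 208 CPM in cDC2 KO and 32.5, 18.1 and 23.3 CPM in pDC KO (log2 difference -2.89 ± 0.32, adjusted p = 2.6e-06), and Cd40 stood at -3.22 ± 0.52. Cd200, an inhibitory surface ligand, was the gene on the other side, at 2.01 ± 0.31 (adjusted p = 9.3e-05). The count past the threshold fell from 14 to 8 without cDC2 KO 3 and to 9 without pDC KO 2. Chemokines and cytokines were lower for 13 of 26 and higher for 2 (median -2.81, or -2.75 with genes at 0 in a group set to their bound). Il1b read 132, 255 and 138 CPM in cDC2 KO and 4.65, 5.14 and 0.175 CPM in pDC KO, and Cxcl10 48.1, 52.8 and 60 CPM and 3.3, 4.17 and 1.93 CPM, with log2 differences of -5.68 ± 0.68 and -4.08 ± 0.45. Il12a, the p35 chain of IL-12, went the other way, at 54.4, 16.9 and 26.6 CPM in pDC KO and 0.143, 0.239 and 0.145 CPM in cDC2 KO, and so did Ccl4 (log2 differences 7.32 ± 0.83 and 2.69 ± 0.41).

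**Figure D2:**
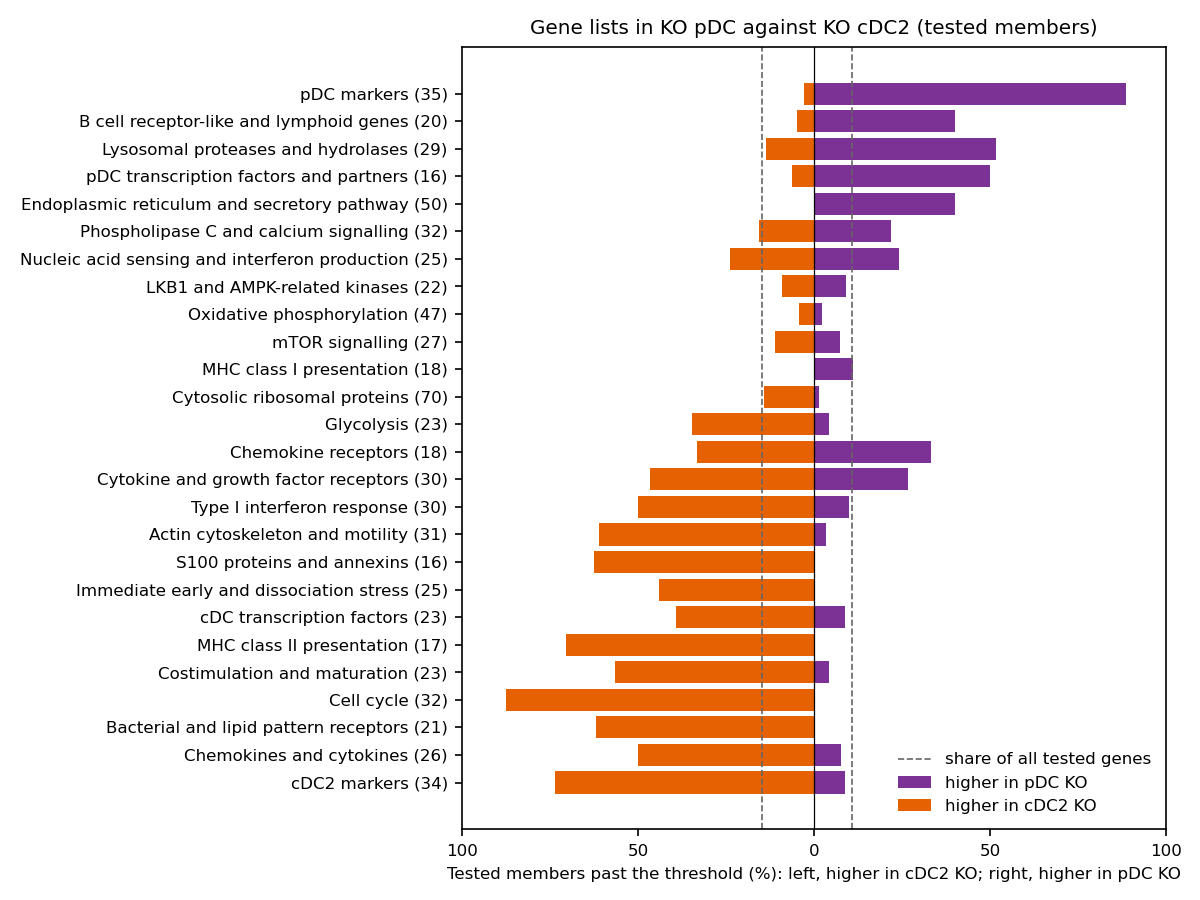
Share of the tested members of 26 gene lists that passed the threshold in KO pDC against KO cDC2, higher in cDC2 KO to the left and higher in pDC KO to the right, with the number tested after each name. The dashed lines mark the shares of all tested genes, 14.9% and 10.9%. Cell cycle genes reach far to the left (28 of 32) and pDC markers far to the right (31 of 35), while oxidative phosphorylation and mTOR genes stay inside the lines.

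Lysosomal genes leaned to pDC. Of 29 tested, 15 were higher in pDC KO, 4 lower and 10 not past the threshold (median 0.94). Beside Ctsl, cathepsin B (Ctsb) read 1507, 1393 and 1794 CPM in pDC KO and 193, 156 and 179 CPM in cDC2 KO, and Npc1, the lysosomal cholesterol exporter, read 688, 865 and 1352 CPM and 129, 118 and 109 CPM. No library of 1 group reached the other for either gene (log2 differences 3.15 ± 0.25 and 3.03 ± 0.33, adjusted p = 4.96e-08 and 1.69e-06). The 4 lower members included Man2b1, Lgmn and Ctsc, at -1.46 ± 0.33, -1.37 ± 0.33 and -0.62 ± 0.22. Lgmn, the asparaginyl endopeptidase that starts invariant chain cleavage, read 134, 62.3 and 95.4 CPM in cDC2 KO and 50.4, 37.1 and 24.7 CPM in pDC KO.

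Genes of the endoplasmic reticulum and secretory pathway were higher in pDC KO for 20 of 50 and lower for 0 (median 0.57). Xbp1, the transcription factor of the unfolded protein response, read 415, 286 and 527 CPM in pDC KO and 62.8, 65 and 56.3 CPM in cDC2 KO (log2 difference 2.74 ± 0.28, adjusted p = 1.07e-06). Ern1, the IRE1 sensor that splices it, read 69.3, 45.5 and 75.3 CPM and 13.8, 8.86 and 14.4 CPM (log2 difference 2.36 ± 0.35, adjusted p = 5.8e-05), and Selenos, of the degradation pathway for misfolded proteins, stood at 1.57 ± 0.27. The count dropped to 12 without cDC2 KO 1 or cDC2 KO 2 and to 13 without pDC KO 3. Summed levels overlapped, at 13990 to 20630 CPM in pDC KO and 10160 to 18790 CPM in cDC2 KO (exact two-sided permutation p = 0.7).

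In the list of B cell receptor-like and lymphoid genes, 8 of 20 were higher in pDC KO and 1 was lower (median 1.93). They included Dntt, the terminal transferase of antigen receptor rearrangement, at 81.7, 95.4 and 79.9 CPM against 1.28, 0.638 and 4.21 CPM, and Cd4, the T cell coreceptor, at 156, 145 and 131 CPM against 5.14, 3.35 and 5.23 CPM, with no overlap (log2 differences 5.45 ± 0.50 and 4.99 ± 0.36, adjusted p = 2.57e-07 and 2.27e-08). Among 21 thymocyte and T cell genes 6 were higher and 1 lower, where 10.9% and 14.9% of all tested genes were. Cd8b1 read 182, 189 and 238 CPM in pDC KO and 2.85, 2.07 and 3.48 CPM in cDC2 KO (log2 difference 6.20 ± 0.42). The T cell receptor complex gene Cd3e, named after its value was seen, read 5.85, 0 and 1.05 CPM and 0.285, 2.23 and 3.78 CPM (adjusted p = 0.953). Summed levels of the thymocyte list were 581.9 to 634.9 CPM in pDC KO and 237.3 to 284 CPM in cDC2 KO, and the part of thymocyte RNA in the lymphoid genes was not tested.

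Other cell types were also read. Of 12 macrophage genes 7 were lower in pDC KO and 0 higher, with summed levels of 44.15 to 57.58 CPM against 152.2 to 179.8 CPM in cDC2 KO. Adgre1 (F4/80) had no count in pDC KO and 16, 11.2 and 11 CPM in cDC2 KO, at least 83.1-fold lower against 3 counts over the group. For B cells the sums were 253.8 to 482.7 CPM in pDC KO and 16.26 to 30.1 CPM in cDC2 KO, mostly from Fcrla, while Vpreb3 was at 0 in all 6 libraries. The melanoma genes Mlana, Tyr, Tyrp1 and Dct were also at 0 in all 6. Of 8 thymic epithelium and stroma genes 3 were higher in pDC KO, the endothelial genes Cdh5, Pecam1 and Kdr, and 3 were lower, Epcam, Krt18 and Ly75, the last of which dendritic cells also express. Cdh5 (VE-cadherin) read 69.4, 71.4 and 53.6 CPM in pDC KO and had no count in cDC2 KO, at least 571-fold higher against that floor. The part of other cell types in these results was not tested.

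Cell cycle genes were lower in pDC KO for 28 of 32, with 0 higher and 4 not past the threshold (median -2.37). Top2a, which untangles DNA in dividing cells, read 624, 633 and 949.6 CPM in cDC2 KO and 97.3, 105 and 90.9 CPM in pDC KO (log2 difference -2.91 ± 0.29, adjusted p = 5.69e-07). Mcm3, of the replicative helicase, read 209, 260.2 and 236 CPM and 26.1, 45.3 and 16.8 CPM (log2 difference -2.99 ± 0.34, adjusted p = 2.99e-06), and Ccna2 (cyclin A2) and Rrm1 stood at -4.01 ± 0.48 and -3.14 ± 0.40. Every cDC2 library was above every pDC library for these genes.

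Actin and motility genes were lower in pDC KO for 19 of 31 and higher for 1 (median -1.06). Vim (vimentin) read 1595, 2364 and 3429 CPM in cDC2 KO and 586, 438 and 326 CPM in pDC KO, and Capg, an actin-capping protein, was the gene on the other side, at 93.1, 56.4 and 65.3 CPM in pDC KO and 5.14, 11.8 and 12.6 CPM in cDC2 KO (log2 differences -2.45 ± 0.34 and 2.85 ± 0.37, adjusted p = 3.12e-05 and 1.38e-05). S100 proteins and annexins were lower for 10 of 16 and higher for 0 (median -1.20), with S100a11, S100a4 and Anxa1 at -1.98 ± 0.23, -5.24 ± 0.82 and -5.76 ± 0.68. Immediate early and dissociation stress genes, which respond to handling, were lower for 11 of 25 and higher for 0 (median -1.25). Atf3 read 723, 1192 and 1948 CPM in cDC2 KO and 206, 54.6 and 31.9 CPM in pDC KO, and Hspa1b 186, 435 and 650.2 CPM and 85.9, 30.4 and 6.3 CPM. Within pDC KO, library 1 was highest for both, and within cDC2 KO, library 3. The count past the threshold for this list was 5 without cDC2 KO 3 or pDC KO 2, 6 without pDC KO 3, 7 without cDC2 KO 2 and 17 without pDC KO 1.

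Receptors for migration and growth were found on both sides. Of all tested genes, 10.9% were higher and 14.9% lower in pDC KO. Of 18 chemokine receptor genes 6 were higher and 6 lower in pDC KO. Beside Ccr9, Cxcr3 was higher, at 38.1, 42.2 and 30.6 CPM against 4.42, 2.15 and 1.6 CPM, and Cx3cr1, the fractalkine receptor, was lower, at 10.2, 13.9 and 5.78 CPM against 102, 92.9 and 87.3 CPM (log2 differences 3.77 ± 0.40 and -3.23 ± 0.45, adjusted p = 1.27e-06 and 2.85e-05). Among 27 integrin and adhesion genes 8 were higher and 8 lower. The integrin chain Itgal (CD11a) was higher, at 2.86 ± 0.33. Of 30 cytokine and growth factor receptor genes 8 were higher and 14 lower, with Il7r on the pDC side at 3.26 ± 0.29 and Kit, the stem cell factor receptor, on the cDC2 side at -3.31 ± 0.37.

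Of 22 tested LKB1 and AMPK-related genes 2 were higher in pDC KO, 2 lower and 18 not past the threshold. That is 4 of 22 called, near the 25.9% of all tested genes. Sik1, a salt-inducible kinase, read 490.5, 404 and 192 CPM in pDC KO and 50.4, 64.5 and 81.2 CPM in cDC2 KO (log2 difference 2.47 ± 0.34, adjusted p = 3.1e-05), and Prkag2, a regulatory subunit of AMPK, stood at 1.51 ± 0.33. Nuak2 and Mark2 were lower, at -1.95 ± 0.39 (adjusted p = 0.00107) and -1.17 ± 0.35 (adjusted p = 0.0193), the second losing its call without cDC2 KO 2, pDC KO 2 or pDC KO 3 (adjusted p 0.0598 to 0.112). In mTOR signalling, 2 of 27 were higher and 3 lower, no more than the 10.9% and 14.9% of all tested genes. Among the lower genes was Deptor, an mTOR inhibitor, at 23.7, 34.9 and 20.5 CPM in cDC2 KO and 0.9, 3.33 and 0.175 CPM in pDC KO (log2 difference -4.10 ± 0.62). The 5 of this list became 3 without cDC2 KO 1 or pDC KO 3.

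In oxidative phosphorylation 1 of 47 genes was higher (Cox6a2) and 2 lower, less than the 10.9% and 14.9% of all tested genes. In glycolysis 1 of 23 was higher and 8 lower. The 1 glycolytic gene on the pDC side was Ldhb, at 18.7, 8.05 and 18.6 CPM in pDC KO and 0.856, 0.957 and 1.6 CPM in cDC2 KO. The other lactate dehydrogenase chain, Ldha, read 85.3, 73.9 and 61.6 CPM and 197, 176 and 223 CPM, so the chains differed in opposite directions (log2 differences 3.72 ± 0.61 and -1.43 ± 0.26, adjusted p = 0.000184 and 0.000494). Hk2 (hexokinase 2) was lower in pDC KO, at -3.14 ± 0.42 (adjusted p = 1.92e-05).

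Of 32 phospholipase C and calcium signalling genes 7 were higher, against 10.9% of all tested genes, and 5 lower, near the 14.9% of all tested genes. Cacna1e, a voltage-gated calcium channel, read 266, 365 and 337 CPM in pDC KO and 15.8, 10.8 and 7.55 CPM in cDC2 KO (log2 difference 4.82 ± 0.38, adjusted p = 5.09e-08), Gnaq, the G protein that activates phospholipase C beta, stood at 2.13 ± 0.34, and Camkk2, a calcium-dependent AMPK kinase, at -2.13 ± 0.35. Plcb1, a phospholipase C beta, read 45.9, 72.8 and 45.9 CPM in pDC KO and 74.2, 66.5 and 54.3 CPM in cDC2 KO, with overlap (adjusted p = 0.707). In WT it read 0, 0 and 0 CPM in pDC and 0 and 1.36 CPM in cDC2, so the KO libraries were all above the WT libraries. Plcb4 read 67.5, 166 and 244 CPM and 78.2, 129 and 121 CPM in the KO groups (adjusted p = 0.334).

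**Figure D3:**
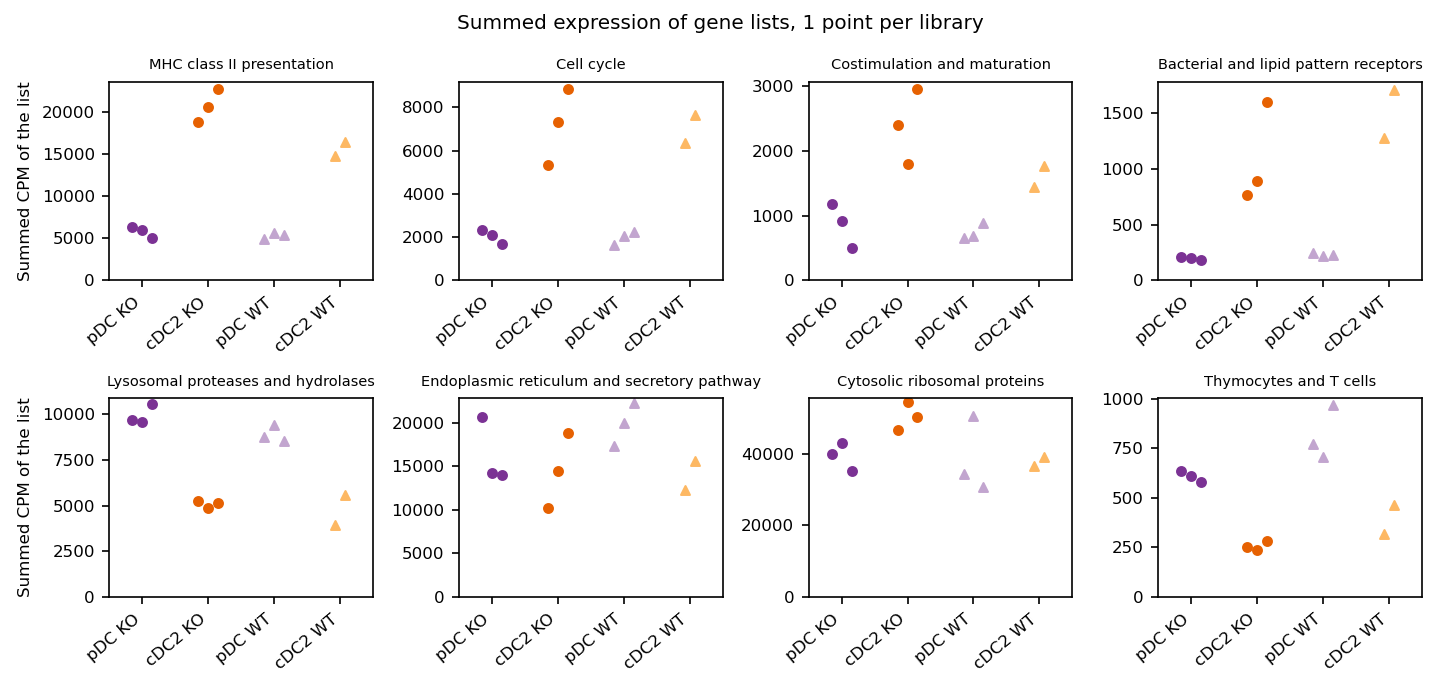
Summed CPM of the members of 8 gene lists in each library of pDC KO, cDC2 KO (circles), pDC WT and cDC2 WT (triangles), on axes that start at 0. The MHC class II and cell cycle sums of cDC2 KO lie above those of pDC KO, the lysosomal sums lie below, and the secretory pathway sums overlap.

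The subset difference was then set beside that of WT mice, with 2771 genes past the threshold there (23.6%), 1336 higher (11.4%) and 1435 lower (12.2%) in pDC WT. The WT groups did not overlap for 43.3% of all tested genes. In all, 1919 genes passed in both genotypes, which is 63.1% of the KO calls and 69.3% of the WT calls, and 1918 of them had the same direction. The sign in WT was the same for 2902 of the 3040 KO calls (95.5%). The 1 gene called in opposite directions was P3h1, a collagen prolyl hydroxylase named after its value was seen. It read 0.45, 0 and 0 CPM in pDC KO, 2.14, 1.99 and 2.76 CPM in cDC2 KO, 2.6, 1.16 and 0.907 CPM in pDC WT and 0 in cDC2 WT, and its KO call was lost in several alternatives, among them leaving out any 1 KO library of cDC2 (adjusted p 0.084 to 0.105).

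The same lists were counted in WT. The cell cycle list had 28 lower genes in KO and 27 in WT of 32, the MHC class II list 12 and 11 of 17, and the pDC marker list 31 and 33 higher genes of 35. Ribosomal protein genes were lower in pDC KO for 10 of 70 (14.9% of all tested genes were) and higher for 1 (median -0.38). In WT 2 were lower and 1 higher (median 0.06), and the counts of the 2 genotypes were not tested against each other. Rps28 read 147, 200.2 and 82.7 CPM in pDC KO and 330.1, 357 and 309 CPM in cDC2 KO, and 178, 122 and 106 CPM in pDC WT and 104 and 119 CPM in cDC2 WT (log2 differences -1.21 ± 0.29 in KO and 0.28 ± 0.33 in WT). For this list the KO count fell from 11 to 6 without cDC2 KO 2 and to 5 without pDC KO 2 or pDC KO 3. Ribosomal protein genes are copied in many pseudogenes, so their tags may be shared, and the share of such counts differed between the KO groups as given above.

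Whether the subset difference itself differed between genotypes was tested as an interaction. With edgeR 0 of 11746 genes passed (0%, smallest adjusted p = 0.139), and 988 had an unadjusted p under 0.05 (8.41%), of which the pDC minus cDC2 difference was larger in KO for 320 (2.72% of tested genes). DESeq2 called 36 genes, limma voom 0, and edgeR without the filter on low counts 88, of which 26 were among those of DESeq2. The calls without the filter included Cldn12 and Hunk (adjusted p = 3.05e-20 and 0.00291 with edgeR). Each of these was high in only a single KO library, as described above, and neither was called by DESeq2. The genes that follow had the smallest p on each side, missed the threshold in edgeR with the filter and passed in DESeq2 and in edgeR without it.

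Itgam encodes CD11b, on which cDC2 were sorted. It read 65.4, 68.7 and 63.4 CPM in pDC KO, 212, 260.3 and 161 CPM in cDC2 KO, 7.81, 2.97 and 4.65 CPM in pDC WT and 105 and 102 CPM in cDC2 WT. The pDC KO libraries lay above every pDC WT library, and the subset difference was -1.68 ± 0.34 in KO and -4.33 ± 0.41 in WT. The interaction was 2.65 ± 0.52 (unadjusted p = 7.1e-05, adjusted p = 0.139 with edgeR). Itgam lies on mouse chromosome 7 from 128062640 to 128118491 (GENCODE M21, GRCm38) and shares its strand with the overlapping gene model Gm49368. Cox6a2 lies nearby, from 128205435 to 128206387. It read 448, 431 and 272 CPM in pDC WT and 8.98 and 2.56 CPM in cDC2 WT, below every KO library of the same subset. The part of the Itgax-cre construct in the Itgam and Cox6a2 values was not tested.

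Mctp2 and Klk1 read lower in cDC2 KO than in cDC2 WT, a contrast that was not tested by itself. Mctp2 read 2.91 and 5.27 CPM in cDC2 WT against 0.428, 0.878 and 0.29 CPM in cDC2 KO (interaction 2.89 ± 0.53, unadjusted p = 3.96e-05). Klk1 read 1.46 and 0.452 CPM in cDC2 WT, from 6 and 3 counts, against 0 in cDC2 KO. Gpm6b, a neuronal membrane glycoprotein, went the other way, at 5.99, 3.11 and 1.74 CPM in cDC2 KO and 0 in both cDC2 WT libraries. Ass1, of arginine synthesis, read 24.1, 27.7 and 24.8 CPM in cDC2 KO and 3, 2.64 and 1.93 CPM in pDC KO, and 3.88 and 5.42 CPM and 3.65, 2.45 and 6.46 CPM in WT (log2 differences -3.33 ± 0.42 and -0.16 ± 0.44). Gab3, a docking adaptor, was at 13.4, 11.4 and 9.87 CPM in cDC2 KO and 0.486 and 1.96 CPM in cDC2 WT, with pDC at 16.3, 18.5 and 19.1 CPM in KO and 14.1, 34.8 and 25.2 CPM in WT. The last 2 genes had interactions of -3.17 ± 0.61 and -3.58 ± 0.71 (adjusted p = 0.139 and 0.139 with edgeR). Among other pDC genes, Ccr9 and Siglech also read lower in cDC2 KO than in cDC2 WT, whereas Cox6a2 and Spib read higher. Ccr9 read 136 and 89.2 CPM in cDC2 WT and 29, 33.7 and 37 CPM in cDC2 KO. Of the 35 pDC markers, 11 had an unadjusted interaction p under 0.05 with edgeR, against 8.41% of all tested genes. The part of residual pDC RNA in the cDC2 libraries was not tested.

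**Figure D4:**
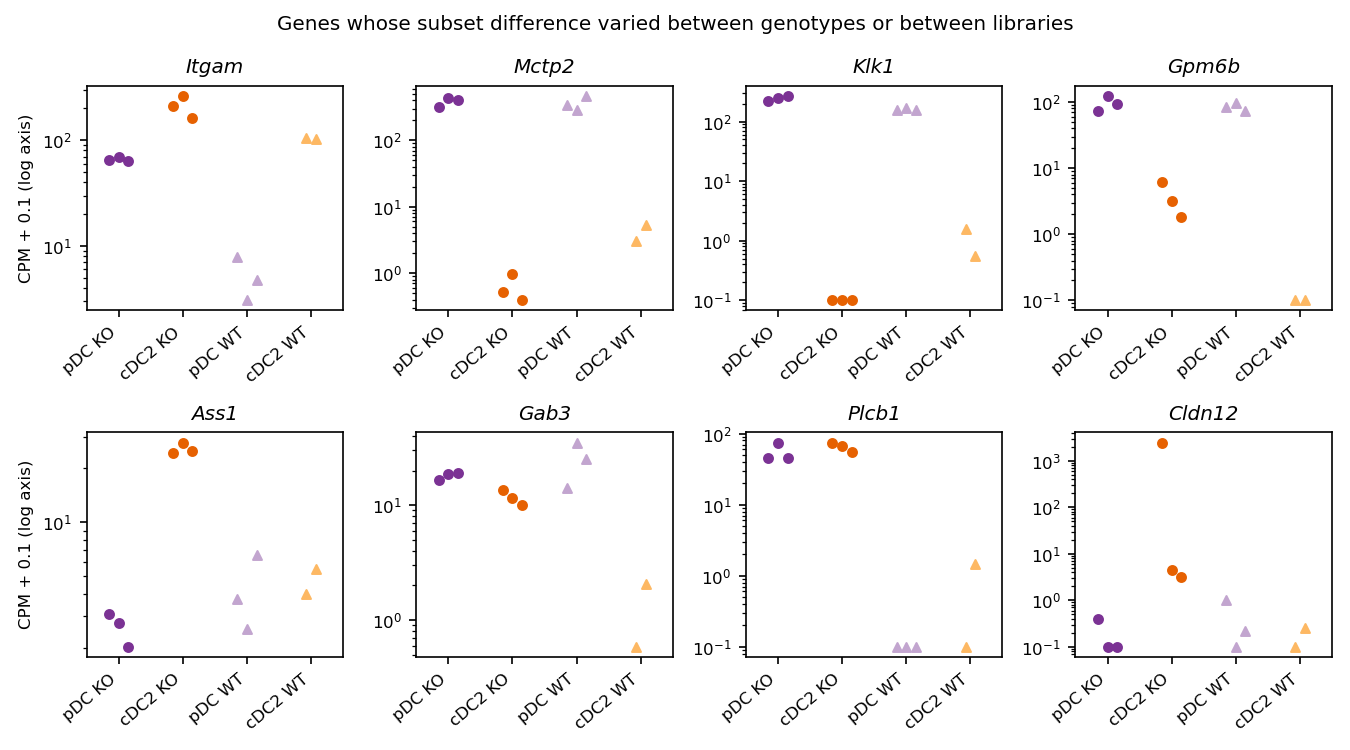
CPM plus 0.1 on a log axis for 8 genes in each library of pDC KO, cDC2 KO (circles), pDC WT and cDC2 WT (triangles), with a separate axis per gene. Itgam in pDC KO lies above pDC WT, Gpm6b and Gab3 in cDC2 KO lie above cDC2 WT, and the single high point of Cldn12 is cDC2 KO 1.

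**Figure D5:**
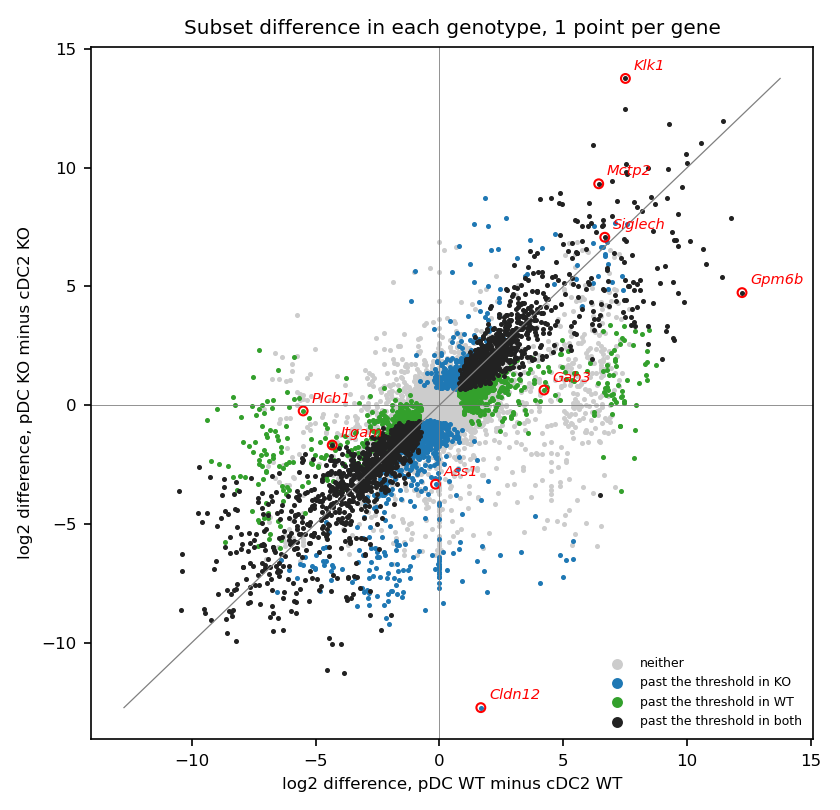
The log2 difference pDC minus cDC2 in KO (vertical) against that in WT (horizontal) for 11746 genes, with the line of equal differences and colours for genes past the threshold in KO, in WT, in both or in neither. Of the 1919 genes past the threshold in both, 1918 lie in the quadrants of equal sign, and the genes in red are described in the text.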

How the data were processed

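RNA was measured in 15 libraries of sorted thymic dendritic cells (pDC, cDC2 and cDC1, KO and WT), deposited by the authors as a table of raw counts per gene. STAR, HTSeq, DESeq2 and the build mm10 are listed in the submitters' processing notes, with roles and versions not given in the sources used here, nor whether counting used strand. Genes with few counts were removed with filterByExpr over the 6 groups, and the genes left out held 0.0538% of counts. Libraries were scaled by TMM, and edgeR 4.0.16 (R 4.3.3, limma 3.58.1) fitted a robust quasi-likelihood model to all 15 libraries, with 1 coefficient per group and no covariate. The threshold was a two-sided Benjamini-Hochberg adjusted p of 0.05, and the procedure was tested on simulated counts of the KO contrast. It recovered 5 of 67 changes of 2-fold (7.46%), 42 of 67 of 4-fold (62.7%) and 54 of 66 of 8-fold (81.8%). There were 5 false calls in all among 11472 genes. A gene that did not pass the threshold may therefore still differ. The data held 3040 KO calls, far more than the genes changed here, and how these shares carry over to the data was not tested. Exact permutation tests compared sums and shares over libraries.

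Alternatives were RLE scaling, no filter, a stricter filter, only the groups of each contrast, no robust fitting, a threshold of 0.1, a fold threshold of 2, a replicate block, thinned counts, DESeq2 1.42.0, limma voom with sample weights, and each library left out. Leaving out both cDC2 WT libraries was an alternative chosen after seeing the data.

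The comparison, the 39 gene lists (927 symbols, 843 tested) and the rule that picks genes to name were chosen with earlier results of these data known. That rule took, in each direction, the smallest p-values without overlap, the most abundant called genes, up to 6 members per list with members against its main direction, the leading interaction genes, and Stk11, Siglech, Cldn12, Plbd1, Itgam, Itgax, Plcb1, Plcb4 and Cox6a2. Other genes are said to be named after their values were seen. Replicates differed by more than counting noise (chi-square per degree of freedom 32.3 to 57.4 within the KO groups). Promoters are from RefSeq, build GRCm38.p6. Some genes of the lists are counted but not reported here by name.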

Additional observations from a re-analysis of the deposited data

How the results depend on the processing

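The count of genes that differed between pDC KO and cDC2 KO ranged from 2228 (without cDC2 KO 3) to 3299 (without pDC WT 3) when each of the 15 libraries was left out. It fell from 3040 to 1341 with a fold threshold of 2, and lay between 2761 and 3940 under the other settings. In WT the count was 1568 with only the groups of the contrast and 1315 with a fold threshold of 2, against 2771, and 2105 to 2919 with 1 library left out. The interaction gave 88 genes without the filter, 36 with DESeq2, and 0 to 1 with 1 library left out, the 1 being Scand1 without cDC2 WT 1 and Cadm1 without pDC WT 1 (adjusted p = 0.0149 and 0.00258 with edgeR). RLE scaling moved the median interaction of all genes from -0.14 to -0.03. Directions turned for Hunk in KO without pDC KO 1 (-0.997, with 4.98 as the highest value when another library was left out) and for the interaction of Plcb1 without cDC2 WT 2 (-0.25, with 6.05 as the highest, against 5.25 in all libraries). The median of oxidative phosphorylation genes changed sign in 8 settings, and that of chemokine receptors with the stricter filter (0.27). Of 140 named genes past the threshold in KO, 131 passed in all 15 fits with a library left out and 119 in every setting. Most of them were picked by small p-values in these data, so this does not describe the other calls. Of all 3040 KO calls, 2185 were kept without cDC2 KO 3, the fewest with 1 library left out.

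With the replicate number as a block, 2815 genes passed in KO, 2364 in WT and 0 in the interaction. Deviations from the group means did not go together in same-numbered KO libraries (r = -0.165, -0.00939 and -0.238 across genes), so the numbers were not taken as pairs.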

Other observations

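Of 10 monocyte and neutrophil genes tested, 2 were higher in pDC KO (Ly6c2 and Plac8) and 3 lower (median -2.26). The summed level was 2121 to 3179 CPM in pDC KO and 646.1 to 734.5 CPM in cDC2 KO. In pDC KO it was mostly Plac8 (2257, 2419 and 1645 CPM) and Ly6c2 (733, 745 and 471 CPM), and Ly6c2 is also in the pDC marker list. Csf3r, the receptor for G-CSF, had no count in pDC KO and was at least 45.1-fold lower there against a floor of 3 counts over the group. The NK cell list had 4 of 11 genes lower in pDC KO, which became 1 without cDC2 KO 1 and 2 without pDC KO 2. Of 4 tested sex-linked genes 3 were higher in pDC KO and 0 lower, and in WT 1 was higher. Their summed level was 452.3 to 578.2 CPM in pDC KO and 305.4 to 364 CPM in cDC2 KO. Mice of both sexes were used, and the part of sex in the results was not tested.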
